A study of Mus musculus with 10 samples.

Results

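The 9 genes followed here encode proteins that bind calcium ions, and their mRNA was measured in 10 single inspiratory neurons of the preBötzinger complex (preBötC), the brainstem site that drives inspiration, in neonatal mice. The genes were chosen by name, as buffers and sensors that are used to class interneurons and that shape calcium signals, and were 9 of the 55367 genes listed in the files. They comprised the buffers Calb1, Calb2 and Pvalb, the calmodulin genes Calm2 and Calm3, the sensors Ncald, Vsnl1 and Hpcal1, and Necab1. Expression was measured by Patch-Seq, in which a neuron is recorded with a patch pipette, its cytoplasm is drawn into the pipette and its RNA is sequenced as 1 library. Values are given in FPKM, fragments per kilobase of gene length, scaled to all fragments counted on genes, so that levels can be compared between genes.

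The neurons are numbered 1 to 10 as in the labels. Neurons 4, 5, 6 and 7 were Type-1, a class recognised by a slow build-up of inspiratory drive and an A-type potassium current, neuron 1 was Type-2, and neurons 2, 3, 8, 9 and 10 could not be typed and are called Unknown. Neurons 1, 5, 6 and 7 were Dbx1-derived and came from pups of Dbx1cre mice crossed with Ai148 mice, on a C57Bl/6J or mixed C57Bl/6J and CD1 background. In these pups Cre, driven by the Dbx1 gene of one class of brainstem progenitors, switches on the fluorescent calcium indicator GCaMP6f. Neurons 2, 3, 4, 8, 9 and 10 were labelled WT, and the CD-1 pups they came from carried no indicator. Pups were aged P0 for neurons 1, 3, 5 and 8, P1 for neuron 10, P2 for neurons 2 and 9, and P3 for neurons 4, 6 and 7. All neurons fired in phase with inspiration in brainstem slices bathed in raised potassium, and came from animals that the labels do not tell apart. Type and mouse line could not be separated, because 3 of the 4 Type-1 neurons were Dbx1-derived and all 5 Unknown neurons were WT. GCaMP6f itself contains a calmodulin sequence, and whether its transcripts were counted on a calmodulin gene was not tested.

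Calcium that enters a neuron through its channels is bound within moments by proteins that carry a helix-loop-helix calcium site called an EF hand. Buffers such as calbindin, calretinin and parvalbumin take up calcium and so set how far and how long a signal spreads. Sensors such as calmodulin and the visinin-like proteins change shape when they bind it and pass the signal to enzymes, channels and membranes. In the brainstem and cortex the buffers are best known as labels of interneuron classes.

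Each library held between 21392146 and 36629393 fragments. A count of 0 was taken to allow 3 fragments. These were worth from 0.00954 FPKM for Ncald, the longest gene, in the deepest library to 0.135 FPKM for Pvalb, the shortest, in the shallowest. Floors and intervals on counts cover counting error only. Library 4 stood apart, with a mean log2(FPKM + 1) of 2.10 over 8 neuronal marker genes. This mean was 4.51 in library 1 and 6.38 to 7.58 in the others. Microglial genes took 1.78% of the fragments of library 4, against 0.268% in library 2, the next highest. They were not confined to it. At 1 FPKM or more were 8 of 8 microglial genes in library 4, 7 in libraries 2, 8 and 10, and 6 in library 5. Library 9 was the one in which all 5 cholinergic motoneuron genes reached 1 FPKM, with a summed 1777 FPKM against at most 1.69 in any other library. Transcripts of Slc17a6, the vesicular glutamate transporter, ran from 101 to 230 FPKM in neurons 5 to 8. The 4 GABAergic or glycinergic genes summed to 261, 60.2 and 135 FPKM in neurons 1, 3 and 10. Not all of these genes shared that pattern. Slc32a1 had 0.0167, 0 and 0.375 FPKM in neurons 1, 3 and 10 and was highest in neuron 2, at 5.95 FPKM. Slc6a5 had 0.0401 FPKM in neuron 3. Of the neurons with Slc17a6, neuron 7 had Gad2 at 5.14 FPKM and neuron 8 had Gad1 at 8.28 FPKM. Libraries 1 to 4 had 5055 to 6795 genes at 1 FPKM or more, against 6632 in library 9 and 8720 to 9307 in the others. No endothelial gene of 4 reached 1 FPKM in any library. Each neuron is 1 sample of its kind, so differences between groups are given as sizes and overlaps, with no test.

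Promoter windows, from 250 bases before to 50 after an annotated start, were available from RefSeq (GRCm38.p6) for 4 of the 9 genes, namely Pvalb, Calm3, Vsnl1 and Hpcal1. They are shown for Calm3, found in every neuron, for Hpcal1, found in most, and for the upstream start of Pvalb, found in few, because these differ in CG dinucleotides, which are written in capitals and are dense in promoters known as CpG islands. Each sequence runs 5′ to 3′ on the strand of its gene.
Calm3, chr7:16923983-16924282, minus strand: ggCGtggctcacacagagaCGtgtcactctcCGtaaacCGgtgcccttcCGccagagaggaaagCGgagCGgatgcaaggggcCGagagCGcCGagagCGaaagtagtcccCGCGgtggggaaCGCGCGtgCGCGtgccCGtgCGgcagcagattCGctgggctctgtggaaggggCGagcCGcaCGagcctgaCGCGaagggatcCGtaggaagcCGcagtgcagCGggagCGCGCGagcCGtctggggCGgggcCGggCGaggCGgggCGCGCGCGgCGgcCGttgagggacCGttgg
Hpcal1, chr12:17690559-17690858, plus strand: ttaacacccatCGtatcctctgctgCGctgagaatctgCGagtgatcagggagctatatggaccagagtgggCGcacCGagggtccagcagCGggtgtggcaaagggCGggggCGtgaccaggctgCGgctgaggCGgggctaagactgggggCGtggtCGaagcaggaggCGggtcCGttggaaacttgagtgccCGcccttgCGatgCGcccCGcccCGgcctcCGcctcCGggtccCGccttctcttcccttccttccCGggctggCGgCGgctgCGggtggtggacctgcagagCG
Pvalb, chr15:78206351-78206650, minus strand: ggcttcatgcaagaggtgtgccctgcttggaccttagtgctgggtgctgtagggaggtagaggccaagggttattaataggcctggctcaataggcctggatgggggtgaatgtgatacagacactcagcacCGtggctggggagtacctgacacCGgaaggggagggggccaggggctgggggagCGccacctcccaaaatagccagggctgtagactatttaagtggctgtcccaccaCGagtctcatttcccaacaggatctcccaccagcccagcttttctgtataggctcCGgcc
The Calm3 window held 44 CG dinucleotides, more than 97.7% of 32544 mouse windows of the same length, whose median was 7. The Hpcal1 window held 27, more than 84.4% of them, and the Pvalb window held 5, more than 37.7%. A second Pvalb start, chr15:78204188-78204487, had 25, so the low number belonged to one start and not to the gene. The windows of the 2 Vsnl1 starts, chr12:11436529-11436828 and chr12:11435602-11435901 on the minus strand, had 18 and 6. On either strand, TATAAA was found in none of the 6 windows and in 13.6% of all windows, and TGACGTCA, the site of cyclic AMP response factors, in none and in 1.80%. GGGCGG, the core that Sp1 recognises, occurred 3 times in the Hpcal1 window, 1 time in each of those of Calm3 and the upstream Vsnl1 start and in 35.9% of all windows. These matches are letters in a window and were not tied to any factor.

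The 9 genes fell into very different levels. Calm2 and Calm3 reached 1 FPKM in all 10 neurons, as did 2.33% of all listed genes. With Ncald, Vsnl1 and Hpcal1 added, 5 of 9 reached it in at least 7 neurons, against 8.92% of all genes. In at least 1 neuron 8 of 9 reached it, against 29.9% of all genes. Calb2, Pvalb and Necab1 reached it in 1 to 3 neurons, as did 46.3% of the genes found at that level anywhere, and Calb1 had 0 fragments in every library, as did 61.7% of listed genes. By median FPKM over the 10 neurons the order was Calm2 at 1611, Calm3 at 124, Vsnl1 at 76.8, Hpcal1 at 73.0 and Ncald at 20.5, and the highest of the other 4 was Pvalb at 0.0153. Calm2 stood above Calm3 in 10 of 10 neurons without overlap, and Calm3 above Vsnl1 in 9 of 10 with overlapping ranges. Vsnl1 and Hpcal1 did not separate, Vsnl1 being the higher in 5 of 10 neurons. Hpcal1 exceeded Ncald in 10 of 10 neurons, although their ranges across neurons overlapped.

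**Figure D1:**
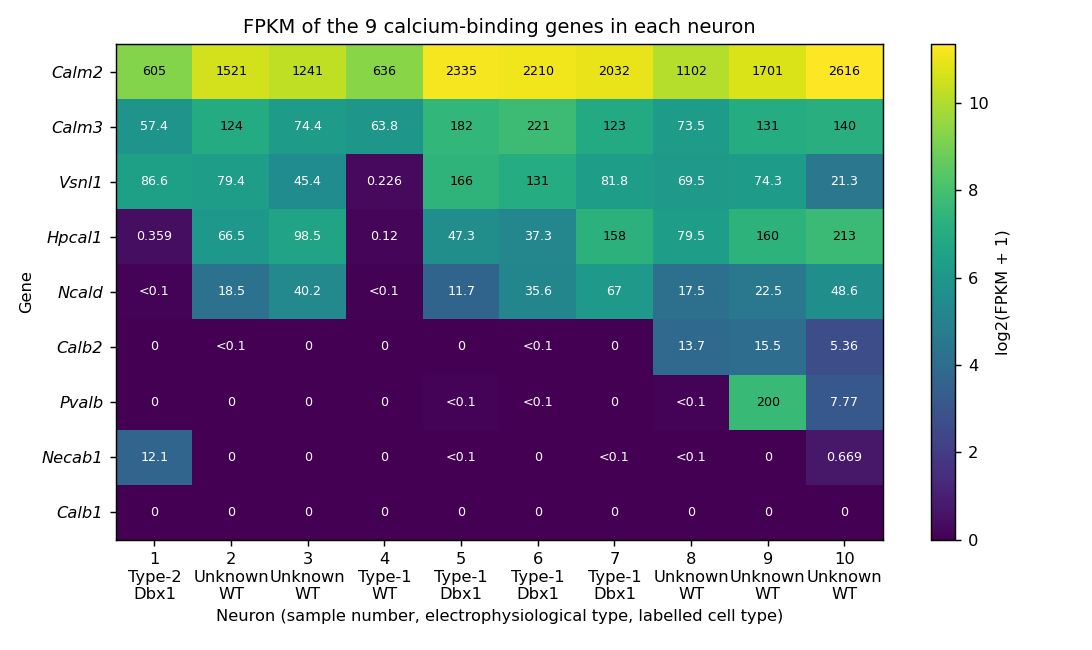
FPKM of the 9 genes (rows) in each neuron (columns, with electrophysiological type and labelled cell type), coloured by log2(FPKM + 1). Calm2 and Calm3 fill their rows, Vsnl1, Hpcal1 and Ncald are near 0 in neuron 4 and the last pair also in neuron 1, and Calb2, Pvalb and Necab1 appear in at most 3 neurons.

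Among the buffers, Calb1, which encodes calbindin D28k (chr4:15881264-15908064, plus strand), was not detected in any neuron. At the limit of 3 fragments, the count of 0 allows 0.0169 FPKM in the deepest library and 0.0289 FPKM in the shallowest. The exact 95% interval of a count of 0 ends somewhat higher, at 3.69 fragments. Scgn, the gene of secretagogin, an EF-hand protein of endocrine cells and some interneurons, was the strongest of the 3 listed buffers besides the members, and it passed 1 FPKM only in neuron 4, at 8.18 FPKM.

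Calb2, which encodes calretinin (chr8:110137502-110168210, minus strand), was present at 13.7 FPKM in neuron 8, 15.5 FPKM in neuron 9 and 5.36 FPKM in neuron 10. The counts behind these were 635 (95% exact Poisson interval 587 to 686), 595 (548 to 645) and 285 (253 to 320). The 3 neurons were all Unknown and WT, and they did not share an age, being P0, P2 and P1. The other 7 neurons had 0 or 1 fragment, and the highest value among Type-1, Type-2 and Dbx1-derived neurons was 0.0182 FPKM, in neuron 6. Unknown neurons 2 and 3, with 1 and 0 fragments, were like the typed ones in this. They belonged to libraries 1 to 4, in which Calb2 reached at most 0.0158 FPKM and Pvalb was at 0. The paper reports the lowest cDNA concentrations for these libraries, although all passed its limit. It also reports that part of the detected genes had lower and more variable expression in them than in the other libraries, library 9 among these. Libraries 1 to 4 had 5055 to 6795 genes at 1 FPKM or more, and library 9, the highest for Calb2 and Pvalb, had 6632. What the libraries had to do with the pattern was not tested.

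The genes whose log2(FPKM + 1) followed that of Calb2 most closely over the 10 neurons, among 10420 genes that reached 1 FPKM in 3 or more neurons, were Sema3c, Shcbp1l and Adcy3, with Pearson r of 0.999, 0.996 and 0.995. Sema3c, which encodes a secreted axon guidance protein, had 12.2, 13.9 and 5.30 FPKM in neurons 8, 9 and 10 and at most 0.206 FPKM elsewhere. Adcy3, an adenylyl cyclase, had 7.26, 9.84 and 5.10 FPKM in the same neurons. With 3 neurons on and 7 off, such an r rests on which neurons are on.

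Pvalb, which encodes parvalbumin (chr15:78191114-78206400, minus strand), was concentrated in 1 neuron. Neuron 9 had 200 FPKM from 4604 fragments (95% interval 4472 to 4739), which was 96.2% of the FPKM summed over the 10 neurons and ranked Pvalb 282nd in that library. Neuron 10 had 7.77 FPKM from 247 fragments, and the remaining 8 neurons had 0 to 3 fragments. Neurons 9 and 10 both belonged to the Unknown WT group, and both also held Calb2. Neuron 9 was the library with the cholinergic motoneuron genes, and neuron 10 was one of those with GABAergic or glycinergic genes, together with 0.09 FPKM over the motoneuron list. What these markers had to do with Pvalb was not tested.

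Calmodulin, the sensor that activates calcineurin, calmodulin-dependent kinases and many channels, is encoded by both Calm2 and Calm3 as the same protein. Calm2 (chr17:87433412-87446935, minus strand) had 605, 1521, 1241, 636, 2335, 2210, 2032, 1102, 1701 and 2616 FPKM in neurons 1 to 10. Its lowest values belonged to neurons 1 and 4, its range was 4.32-fold, and its median was 938 FPKM in neurons 1 to 4 and 2121 FPKM in neurons 5 to 10. It ranked between 6th and 135th of the genes in its library, the 135th place being that of neuron 4. Calm3 (chr7:16915379-16924114, minus strand) had 57.4, 124, 74.4, 63.8, 182, 221, 123, 73.5, 131 and 140 FPKM, a 3.85-fold range, again with neurons 1 and 4 at the low end. Type-1 neurons 5 and 6 were the highest for Calm3, whereas Unknown neuron 10 was the highest for Calm2.

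Across neurons both genes varied less than most genes that were present everywhere. The SD of log2(FPKM + 1) was 0.75 for Calm2 and 0.65 for Calm3 (n = 10), against a median of 1.03 among the 1290 genes at 1 FPKM or more in all 10 neurons, of which 22.3% and 14.2% had a lower SD. Without neurons 1 and 4 the SDs were 0.45 and 0.55 (n = 8). Calm2 and Calm3 were high and low in the same neurons, with Pearson r = 0.90 and Spearman rho = 0.915 on the log2 scale over 10 neurons and r = 0.85 without neurons 1 and 4. Points in this relation share their library, so differences in library make-up enter both genes. Members of all kinds together, of which Calm2 was the most abundant, took 0.126% and 0.109% of counted fragments in neurons 1 and 4 and 0.224% to 0.502% in the others.

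**Figure D2:**
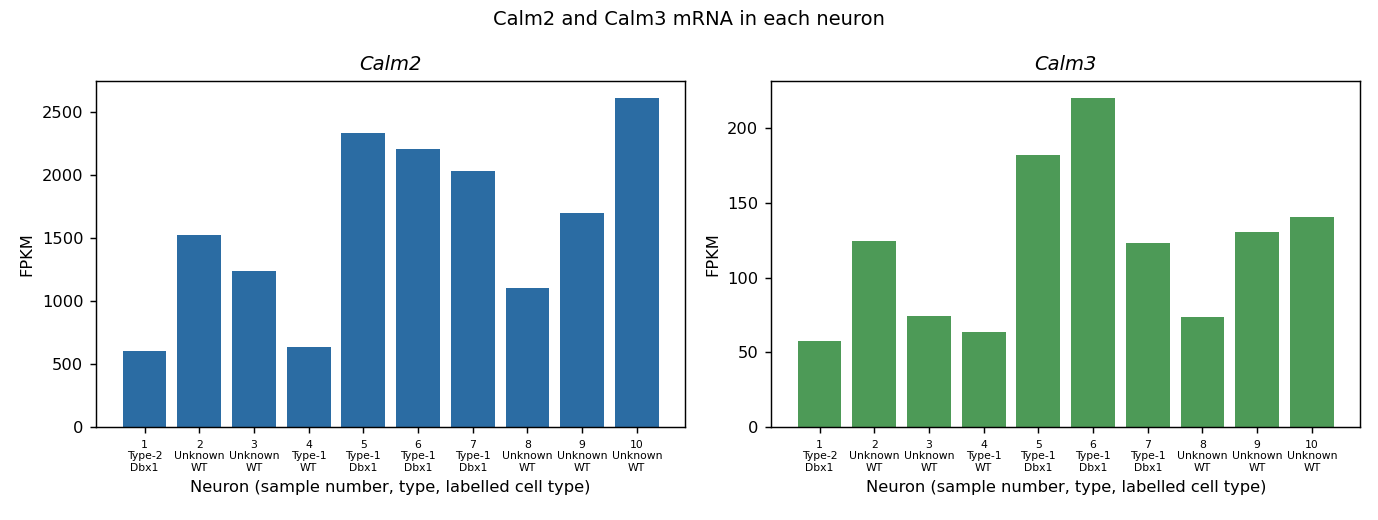
FPKM of Calm2 (left) and Calm3 (right) in each neuron (bars, 1 library each, no error bar; the scales of the y axes differ). Neurons 1 and 4 have the shortest bars in both panels, and the tallest is neuron 10 for Calm2 and neuron 6 for Calm3.

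Per length, Calm2 exceeded Calm3 by 13.5-fold ± 3.05 (SD, n = 10). The ratio of their FPKM was 10.5, 12.2, 16.7, 9.96, 12.8, 10.0, 16.5, 15.0, 13.0 and 18.6 in neurons 1 to 10, lowest in Type-1 neurons 4 and 6 and highest in Unknown neuron 10, and the Type-1 neurons, from 9.96 to 16.5, overlapped the Unknown ones, from 12.2 to 18.6. As bare fragment counts the mean ratio was 8.20, because the files give Calm2 a length of 1467 bases and Calm3 one of 2423. The genes resemble each other in coding sequence, and how fragments matching several genes were handled is not given in the sources used here, so the split between them is uncertain. Of the calmodulin-like genes, Calml3 and Calml4 had 0 fragments in all neurons.

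The sensors Vsnl1, Hpcal1 and Ncald belong to the family of neuronal calcium sensors, which carry a lipid tail that calcium exposes and that anchors them to membranes. Vsnl1, which encodes visinin-like protein 1 (chr12:11325242-11436613, minus strand), had 86.6, 79.4, 45.4, 0.226, 166, 131, 81.8, 69.5, 74.3 and 21.3 FPKM in neurons 1 to 10. It was present in 9 neurons, lowest among these in neuron 10 and highest in Type-1 neurons 5 and 6, and nearly missing in neuron 4. Hpcal1, the hippocalcin-like 1 gene (chr12:17690856-17791933, plus strand), had 0.359, 66.5, 98.5, 0.120, 47.3, 37.3, 158, 79.5, 160 and 213 FPKM. It was near 0 in neurons 1 and 4, and among the other 8 it spanned 5.71-fold, with neurons 5 and 6 at the low end. Ncald, which encodes neurocalcin delta (chr15:37366175-37792570, minus strand), had 0.0926, 18.5, 40.2, 0.0396, 11.7, 35.6, 67.0, 17.5, 22.5 and 48.6 FPKM, with the same 2 neurons near 0.

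Neuron 1, the Type-2 neuron, held Vsnl1 at a level within the range of the others while Hpcal1 and Ncald were below 0.4 FPKM. Of the related sensors in the same library, Hpca and Hpcal4 were also low, at 0.160 and 0.0700 FPKM, as were Hpca in neuron 3, at 0.0989 FPKM, and Hpcal4 in neuron 8, at 0.106 FPKM. Ncs1 was at 36.5 FPKM in neuron 1. In neuron 4 the highest of the 3 sensors among the members was Vsnl1, at 0.226 FPKM, and Ncs1 was at 15.0 FPKM there. Libraries 1 and 4 were the lowest for neuronal marker genes, and library 4 the highest for microglial ones. The part of either in the low sensors was not tested.

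**Figure D3:**
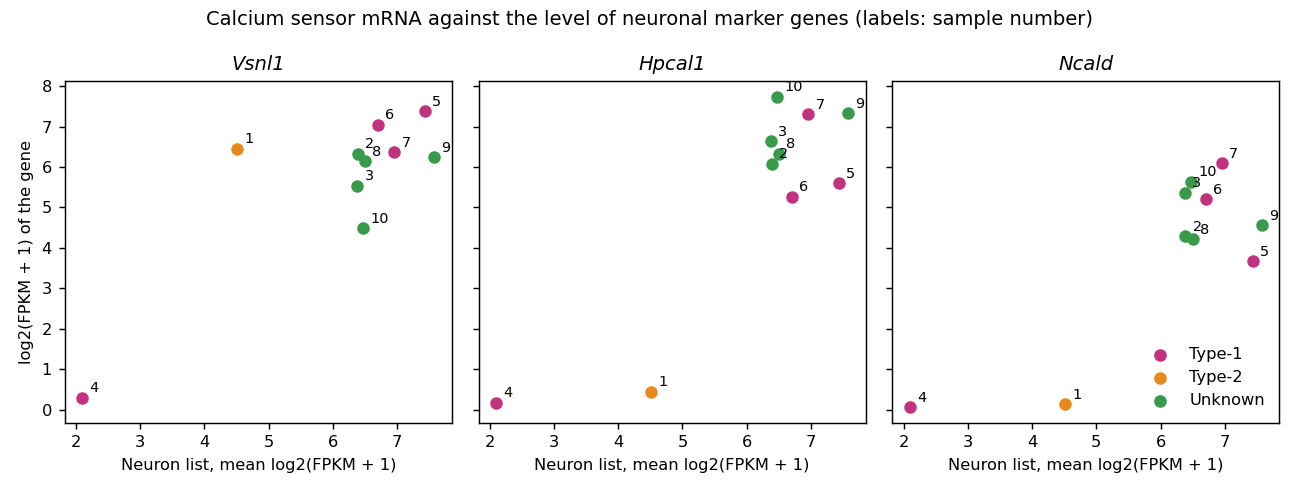
log2(FPKM + 1) of Vsnl1, Hpcal1 and Ncald (y axis) against the mean log2(FPKM + 1) of 8 neuronal marker genes (x axis), 1 point per neuron, coloured by electrophysiological type. Neuron 4 is at the lower left in each panel, and neuron 1 is low for Hpcal1 and Ncald but not for Vsnl1.

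Vsnl1 and Hpcal1 ran in opposite order among the 8 neurons other than 1 and 4, with Pearson r = -0.77 and Spearman rho = -0.714, given as a description. Neuron 10 had the lowest Vsnl1 and the highest Hpcal1 of these, and neurons 5 and 6 the highest Vsnl1 and the lowest Hpcal1. With all 10 neurons r was 0.49 and rho -0.273. Without neuron 4 alone, which was low for both genes, r was -0.38 and rho -0.75. Leaving out neurons 1 and 4 was chosen after the data were seen. Ncald was closest to Hpcal1 among 10420 genes, at r = 0.95, and this was 0.55 without neurons 1 and 4, so the likeness rested largely on the neurons that were low in both. Ncald was next closest to 2210016L21Rik and Ppp2r2b, a regulatory subunit of protein phosphatase 2A, at r = 0.95 for each and 0.46 and 0.55 without neurons 1 and 4.

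Vsnl1 was most like Zcchc12, Pnck, a calmodulin-dependent kinase, and Slc25a46, a mitochondrial carrier, at r = 0.95, 0.95 and 0.94 over 10 neurons and 0.63, 0.73 and 0.69 without neurons 1 and 4. Hpcal1 was most like Sult4a1, a brain sulfotransferase, Frs3 and Ube2ql1, at r = 0.98, 0.97 and 0.97, and 0.65, 0.76 and 0.70 without those neurons. These 6 genes had at most 0.417 FPKM in neuron 4, and the 3 most like Hpcal1 had at most 0.577 FPKM in neuron 1.

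Necab1, whose protein carries an EF hand and marks some spinal and brainstem interneurons (chr4:14952245-15149794, minus strand), was found in 1 neuron above 1 FPKM. The Type-2 neuron had 12.1 FPKM from 1351 fragments, and neuron 10 had 0.669 FPKM from 107 fragments (95% interval 87.7 to 129). Neurons 1 and 10 were 2 of the 3 with the highest summed GABAergic or glycinergic genes, and the third, neuron 3, had 0 fragments of Necab1. The remaining 8 neurons had 0 to 2 fragments. The related Necab2 showed another pattern, with 4.89, 28.2, 15.5, 18.5 and 36.1 FPKM in neurons 4, 5, 6, 7 and 10 and at most 0.0648 FPKM elsewhere, so that all 4 Type-1 neurons held it, and Unknown neuron 10 as well.

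Between Type-1 and Unknown neurons (4 against 5), 4 of the 9 genes had a mean log2(FPKM + 1) at least 1 higher in Unknown neurons, and 0 were so in Type-1 neurons. Of 12418 genes that reached 1 FPKM in 2 or more neurons, 11.8% were higher in Unknown and 20.8% in Type-1 neurons by that much, 32.6% in all. Of the members, 7 passed this filter, and Calb1 and Necab1 did not. The differences, Type-1 minus Unknown, were -2.12 for Calb2, -2.14 for Pvalb, -2.24 for Hpcal1 and -1.06 for Ncald. The ranges of the groups overlapped for every one of these, while 1.22% of the 12418 genes had no overlap. Calb2 and Pvalb rested on the 3 and 2 Unknown neurons that held them, and without neuron 9 the Pvalb difference was -0.77. Both genes passed the filter only through those neurons, so they could be called only on the Unknown side. The sensors depended most on neuron 4, since without it the difference was -0.77 for Hpcal1 and 0.17 for Ncald. That of Ncald was also smaller than 1 in size without neuron 3 (-0.92) or neuron 10 (-0.85). Without neuron 7 the Hpcal1 difference was -3.15. Without neuron 4, Vsnl1 was higher in Type-1 neurons by 1.19 and did not overlap the Unknown ones. The same lack of overlap held for 5.49% of 11951 genes in that comparison of 3 against 5. The gap was narrow, 81.8 FPKM in neuron 7 against 79.4 FPKM in neuron 2. With neuron 4 kept, the Vsnl1 difference was -0.47, and it was -1.17 without neuron 5 and -1.06 without neuron 6. Calm2 and Calm3 differed by 0.04 and 0.35.

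Between Dbx1-derived and WT neurons (4 against 6), Vsnl1 was the member that separated the groups. It ran from 81.8 to 166 FPKM in Dbx1-derived neurons and from 0.226 to 79.4 FPKM in WT neurons, a difference of 1.98 in mean log2(FPKM + 1), and of 1.07 without neuron 4, still with no overlap, as for 2.95% of 11951 genes without that neuron. The gap between the groups was narrow, 81.8 FPKM in neuron 7 against 79.4 FPKM in neuron 2. Of the 12418 genes 2.36% did not overlap between these groups, 26.7% were at least 1 higher in Dbx1-derived neurons and 16.7% in WT neurons, 43.4% in all. Calb2 (-1.76), Pvalb (-1.78) and Hpcal1 (-1.06) were higher in WT neurons on the same scale, with overlapping ranges. Calb2 and Pvalb passed the filter only through WT neurons, so they could be called only on that side. The Hpcal1 difference turned to 0.34 without neuron 1, was -2.17 without neuron 4, and was smaller than 1 in size when any of neurons 2, 3, 8, 9 and 10 was left out. Ncald, at -0.25, was 0.97 without neuron 1, -1.04 without neuron 4 and -1.02 without neuron 7, and Pvalb was -0.61 without neuron 9. With TPM, which rescales each library to a fixed sum, the Hpcal1 difference was -0.71 and that of Ncald turned from -0.25 to 0.02. Since no Unknown neuron was Dbx1-derived, the line cannot be told apart from the type here, and the 2 groupings share most of their neurons.

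Between P0 neurons and those of P2 to P3 (4 against 5, the P1 neuron left out), 2 members differed by at least 1. Vsnl1 was 1.12 higher at P0, and this was -0.12 without neuron 4. Pvalb differed by -1.49, and by 0.04 without the P2 neuron 9. It passed the filter only through that neuron and the P1 neuron, so it could not be called as higher at P0. Ncald and Hpcal1, at -0.69 and -0.48, were at -1.69 and -1.74 without neuron 4 and at 0.38 and 0.96 without neuron 1. Of the 12418 genes, 17.5% were higher and 16.5% lower at P0 by that much, 34% in all, and no member was free of overlap, against 0.862% of genes. Calb2 passed 1 FPKM in a neuron each of P0, P1 and P2, and the 3 neurons of P3 had 0 or 1 fragment. All 3 were Type-1, so for the P3 neurons age and type cannot be told apart. Neuron 5, the Type-1 neuron of P0, had 0 fragments, as had P0 neurons 1 and 3, and P2 neuron 2 had 1.

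Among 41 other genes in lists of calcium-binding and calmodulin-binding proteins, 4 reached 1 FPKM in all 10 neurons, 12 in 7 to 9, 18 in 1 to 6 and 7 in none. The 4 were Ncs1, Camk2d, Ppp3r1 and Gap43. Ncs1, neuronal calcium sensor 1, ran from 9.09 to 87.2 FPKM. Gap43, a growth cone protein that binds calmodulin, ran from 55.5 FPKM in neuron 4 to 1821 FPKM in neuron 10. Ppp3r1, the calcium-binding regulatory subunit of calcineurin, had 2.75 FPKM in neuron 1 and 10.3 FPKM in neuron 4 against 61.3 to 163 FPKM in the other neurons. Camk2d, a calmodulin-dependent kinase, ran from 1.49 to 27.7 FPKM.

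The sensor family had 11 listed genes with the 3 members, of which 2 in neuron 1 and 3 in neuron 4 reached 1 FPKM, and 7 to 9 in the others. Hpca, the gene of hippocalcin, was at 42.0 to 118 FPKM in 7 neurons and at or below 0.160 FPKM in neurons 1, 3 and 4. Cabp1 had the highest mean of the 6 CaBP and calneuron genes and reached 14.5 FPKM. S100a1 led the 7 S100 genes and ran from 0.196 FPKM in neuron 9 to 390 FPKM in neuron 3, with neuron 4 next at 227 FPKM. Libraries 3 and 4 also had the largest shares of fragments in the listed astrocyte genes, 1.61% and 1.12%. What glial transcripts had to do with S100a1 was not tested.

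**Figure D4:**
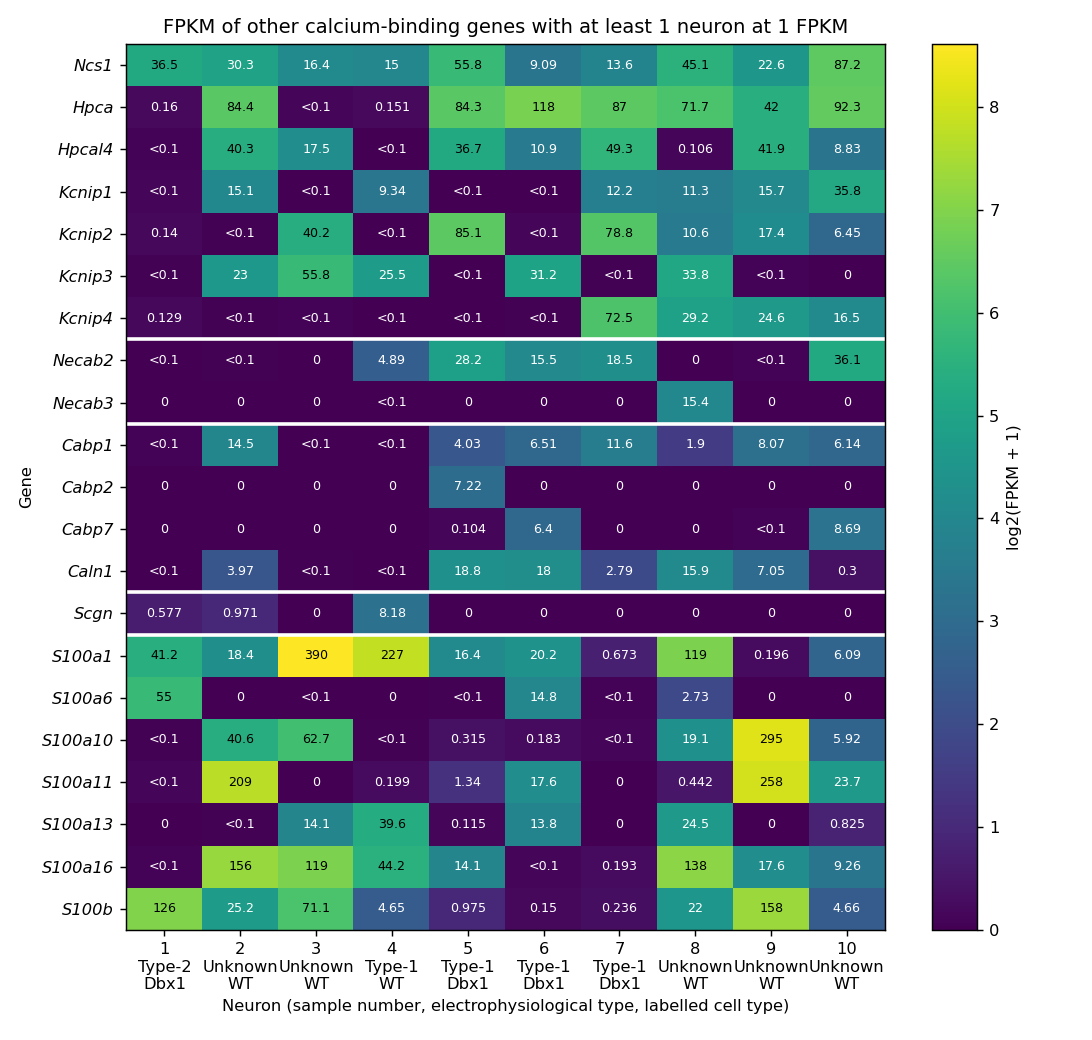
FPKM of other listed calcium-binding genes that reached 1 FPKM in at least 1 neuron (rows: sensors, NECAB, CaBP and calneuron, buffers, and S100, parted by white lines) in each neuron (columns), coloured by log2(FPKM + 1). Ncs1 is present throughout, and the others are near 0 in some neurons, Hpca in 1, 3 and 4 and Hpcal4 in 1, 4 and 8.

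Low values need care, because a library can hold a few fragments that belong to another. Of the 90 values of the 9 genes in 10 neurons, 51 were at 1 FPKM or more, 25 had 0 fragments and 14 lay between. Rates of such fragments were measured on genes nearly private to 1 library, and were above 0 in 29 of 90 ordered pairs of libraries, with a median of 0.0395% and a highest of 0.140%. From these rates 66.6 fragments were expected over the 14 values, and 178 were counted. The excess was mostly Necab1 in neuron 10, with 107 counted and 0 expected. The 13 fragments of Vsnl1 in neuron 4 exceeded the 4.99 expected and its upper limit of 10, and single fragments of Necab1 in neurons 5 and 8 had 0 expected. The other 10 values did not exceed the expected upper limit. For neurons 1 and 4 this included 17 and 10 fragments of Ncald, against 26.4 and 7.79 expected, and 13 and 6 fragments of Hpcal1, against 12.9 and 3.50 expected. Under a stricter choice of private genes, with 10000 counts and 1%, for which 5 libraries had no such gene and so a rate of 0, the expected counts of these 4 values and of Vsnl1 in neuron 4 were 0. Whether those 4 values were fragments of other libraries therefore depends on that choice.

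**Figure D5:**
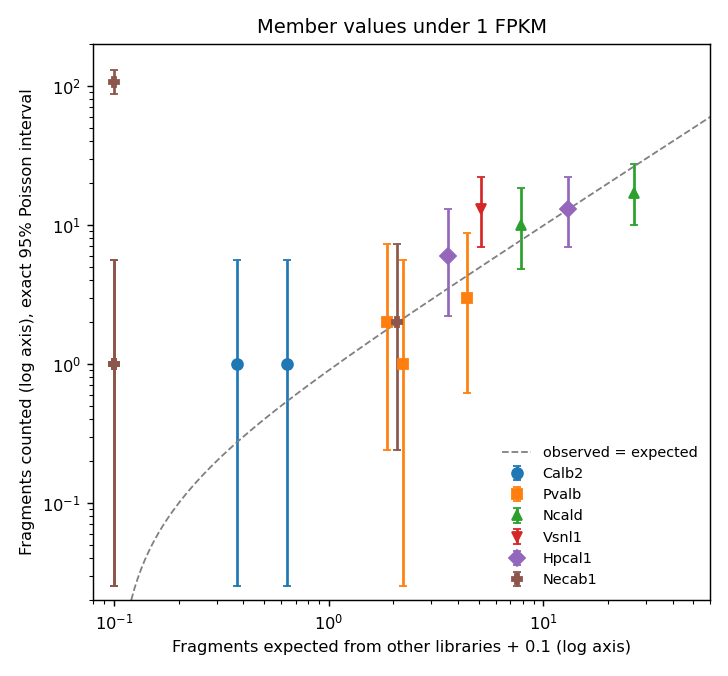
Fragments counted (y axis, log scale, bars are exact 95% Poisson intervals) against fragments expected from other libraries plus 0.1 (x axis, log scale) for the 14 values between 0 and 1 FPKM, coloured by gene. Points near the dashed line, where counted equals expected, include Ncald and Hpcal1 in neurons 1 and 4, while Necab1 of neuron 10 is far above it.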

How the data were processed

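RNA of 10 single preBötC neurons was sequenced, 1 library per neuron (SMART-Seq v4 cDNA, Nextera libraries, paired reads). The authors trimmed reads with bbduk, aligned them with STAR 2.7.7a to GRCm38 with Ensembl 102 and used featureCounts to assign fragments to genes. Raw counts and gene lengths were deposited. The deposited FPKM equal those counts divided by length and by the library's total. Handling of fragments that match several genes is not given in the sources used here.

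FPKM were used as deposited, with log2(FPKM + 1) for means and differences. Library totals ran from 21392146 to 36629393 fragments, and a count of 0 was taken to allow 3, below the 3.69 of the exact interval. Intervals on counts are exact 95% Poisson intervals. Groups followed the labels for type, mouse line and age. Because each sample is 1 neuron and no animal is named, no test was made: a difference of at least 1 in mean log2(FPKM + 1) (2-fold) and the overlap of ranges are given for genes that reached 1 FPKM in 2 or more neurons, beside the share of all such genes. Low counts were set beside those expected from other libraries, measured on genes that had 1000 counts or more in a library and no more than 2% of this in any other, a setting taken from earlier work on these data. The calculations were also tested on simulated data.

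The members and the gene lists were chosen with earlier results of these data known. The genes named were the members, those other listed calcium-binding genes at 1 FPKM or more in all 10 neurons or with the highest mean of their list, marker genes, and the 3 genes most like each member found in 3 to 9 neurons. Hpca and Hpcal4 were chosen after their values were seen. A planned result, with its alternative, is not reported here. The lists were cytosolic buffers, calmodulins, neuronal calcium sensors, NECAB, CaBP and calneuron, S100 and calmodulin binders, with markers of neurons, glutamatergic, GABAergic or glycinergic and cholinergic neurons, microglia, astrocytes, oligodendrocytes and endothelium. Astrocyte genes at 1 FPKM or more numbered 2 to 8 of 10 per library, and oligodendrocyte lineage genes 0 to 4 of 6. Gene positions are from a GRCm38 annotation (GENCODE mouse release M21). Alternatives were another pseudocount, TPM, size factors, no filter, another detection limit, a 4-fold limit, subtraction of expected counts and leaving out each neuron. Calculations used SciPy 1.17.1, pandas 2.3.3 and NumPy 2.4.6 in Python 3.11.15, with figures by Matplotlib 3.10.9.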

Additional observations from a re-analysis of the deposited data

Results flagged for a closer look

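Dixon's criterion compares the highest or lowest neuron of a group with the others and by chance passes about 1 in 20 groups. Of 32 groups of values, 11 had a neuron past it, but this number cannot be set against chance, since the groups share neurons and a single value above others at 0 passes by construction. The values below are log2(FPKM + 1).

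Neuron 4 stood below the other Type-1 neurons for Calm2 (9.31) and Vsnl1 (0.29). It also stood below the other WT neurons for Vsnl1 (0.29), Ncald (0.0560) and Hpcal1 (0.16). Neuron 1 stood apart from the other Dbx1-derived neurons for Calm2 (9.24), on the low side, and for Necab1 (3.71), on the high side. These 2 libraries were the lowest for neuronal marker genes, and that part was not tested.

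Neuron 10 stood above the other Unknown and the other WT neurons for Necab1 (0.74 in both). Neuron 6 stood apart for Calb2 among Type-1 and Dbx1-derived neurons (0.0260 in both), which was a single fragment against 0 in the others and is within the expected count from other libraries.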

How the results depend on the processing

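Of 195 alternatives, 179 left a result within the replicate spread, or within 1.5 times for a count, and 16 moved it. A count was judged by its size alone, so the members behind it could change. Without neuron 4, the count between Type-1 and Unknown neurons was 3 in place of 4. It was labelled the same, though Ncald and Hpcal1 had left it and Vsnl1 had entered as higher in Type-1 neurons. With TPM the count between Dbx1-derived and WT neurons stayed at 4, with Necab1 in place of Hpcal1. For member levels, mean log2(FPKM + 1), 124 of 128 stayed. Leaving out 1 of 10 neurons cannot move a mean past the SD over neurons. The runs of that kind among the 128 could therefore only stay. With a pseudocount of 0.1 the level of Calb2 was -1.26 and that of Necab1 -2.30, and with TPM that of Calm2 was 11.73 and that of Calm3 8.01. TPM raised the median gene by 0.72 on the log2 scale and size factors lowered it by 0.33. Under size factors the Calm2 difference between Type-1 and Unknown neurons turned from 0.04 to -0.15 and the Calb2 difference between P0 and P2 to P3 from 0.15 to -0.01. Members at 1 FPKM or more numbered 2 in all 10 neurons in place of 5 in at least 7. At a 4-fold limit, 0 members differed between Dbx1-derived and WT neurons and 0 between P0 and P2 to P3 neurons. Without neurons 1 and 4, chosen after seeing the data, the P0 comparison had 1, which was Pvalb. The Calm2 to Calm3 ratio was 13.5 per length and 8.20 in counts not divided by length, an alternative also chosen after seeing the data. Expected fragments fell from 66.6 to 12.3 with private genes at 10000 counts and 1%, where 5 libraries had no such gene.

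Leaving out each neuron in turn gave levels of 0.73 to 1.18 for Calb2, 0.38 to 1.23 for Pvalb, 10.39 to 10.63 for Calm2, 6.66 to 6.88 for Calm3, 3.68 to 4.35 for Ncald, 5.43 to 6.22 for Vsnl1, 5.02 to 5.86 for Hpcal1 and 0.09 to 0.50 for Necab1. Members past 2-fold numbered 2 to 5 between Type-1 and Unknown neurons (2 without neuron 10), 2 to 5 between Dbx1-derived and WT neurons (2 without neuron 9 or 10) and 1 to 4 between P0 and P2 to P3 neurons (4 without neuron 3, 1 without neuron 5 or 9). Without neuron 10, Pvalb left the counts by type and by line because it no longer passed the filter, while its differences were -1.90 and -1.51. Members in at least 7 neurons stayed at 5, which leaving out 1 neuron could not change. These 5 were at 1 FPKM or more in 8 to 10 neurons, and the other members in at most 3. Calb1, with no fragment, has no alternative level. No paired analysis was possible because the replicate numbers only name neurons and no result comes from a test.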
